A study of Mus musculus with 4 samples.

Results

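A set of 10 genes that build, load and display MHC class I was followed in monocytes and macrophages of the mouse colon: the inducible proteasome subunits Psmb8, Psmb9 and Psmb10, the proteasome activator subunits Psme1 and Psme2, the peptide transporter subunit Tap1, its loading partner Tapbp, and B2m, H2-D1 and H2-K1, the light chain and the heavy chains of the class I molecule. They were taken by symbol, and all 10 were found among the 11820 genes of the count table. The cells came from male C57/Bl6N mice that were 6 to 7 weeks old and received chow or a coconut-based high-fat diet (HFD; 60% fat) for 1 week. Single-cell RNA-seq was run on 2 chow mice (replicates 9 and 11) and 2 HFD mice (replicates 1 and 3), with each mouse in a well of its own. Colonic lamina propria cells had been sorted as live CD45+ Lin- CD11b+ CD24- and positive for Ly6C or CD64. The libraries were made from the sorted cells, and markers of other cell types were not absent from them, as given below.

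Class I molecules show peptides from a cell's own proteins to CD8 T cells. The peptides are cut by the proteasome, in which interferon-inducible catalytic subunits can take the place of the constitutive ones, are pumped into the endoplasmic reticulum by the TAP transporter, and are loaded there onto a heavy chain paired with B2m. Colonic macrophages arise in large part from Ly6C-high blood monocytes, which gain MHC class II, lose Ly6C and finally express high levels of complement C1q, and interferon-gamma is a known inducer of the class I pathway in macrophages.

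In the mouse annotation used (GENCODE, GRCm38), 6 of the 10 genes lie on chromosome 17, in the MHC region: H2-K1 at chr17:33996017-34000347, Tapbp at chr17:33915899-33929292, Psmb9 at chr17:34181987-34187764, Tap1 at chr17:34187553-34197225, Psmb8 at chr17:34197721-34201454 and H2-D1 at chr17:35262730-35267499. Psme1 and Psme2 are neighbours on chromosome 14, at chr14:55578123-55581529 and chr14:55587441-55591113, B2m is at chr2:122147686-122153083, and Psmb10 is at chr8:105935735-105938444. Psmb9 and Tap1 face away from each other, and their RefSeq starts are only 225 bases apart. Because the genes are described together, the 250 bases before each RefSeq start (GRCm38.p6) were searched on both strands for 3 motifs known from class I or interferon-inducible promoters. GENCODE exons, of the gene itself or of a neighbour, cover all 250 bases of the windows of Psmb8, Psmb9, Tap1, Tapbp and H2-D1, 139 of those of Psme1 and 0 of the first window of H2-K1, so that not every window lies outside transcribed sequence. Of the interferon-stimulated response element, only the exact letters GAAANNGAAA were searched. They were found in the window of B2m alone of the 10 genes, and 2.98% of 32851 mouse windows of this length hold them. Looser forms of the element were not searched, so the other windows may hold one. The gamma-activated site (GAS) motif TTCNNNGAA was found in the window of Psmb8 alone, against 7.02% of all windows. The enhancer A motif GGGGANTCCCC, a binding site of NF-kB factors, was found in the windows of both heavy chain genes, H2-K1 and H2-D1, and in 15 windows in all (0.0457%). The matches of Psmb8 and H2-D1 lie inside the genes as GENCODE draws them, in annotated exon, and those of B2m and H2-K1 lie outside. The 4 matches are printed here with 30 bases each, read along the gene, with the motif in capitals, so that the site shared by the heavy chain genes can be seen beside those of B2m and Psmb8:
B2m, chr2:122147538-122147567, plus strand: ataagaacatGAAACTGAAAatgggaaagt
Psmb8, chr17:34198088-34198117, plus strand: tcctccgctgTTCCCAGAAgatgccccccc
H2-K1, chr17:34000438-34000467, minus strand: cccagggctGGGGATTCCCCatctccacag
H2-D1, chr17:35262914-35262943, plus strand: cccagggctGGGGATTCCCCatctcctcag
The windows of H2-K1 and H2-D1 were identical at 29 of 30 bases. The match ends 101 bases before the first H2-K1 start of RefSeq and 161 bases before the H2-D1 start, and the B2m match ends 130 bases before its start. These matches are letters in a window, and no factor was measured there.

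The table held 5420 cells, 904 and 2002 from chow mice 9 and 11 and 966 and 1548 from HFD mice 1 and 3, with 3824228 to 7947893 unique molecular identifiers (UMIs) per mouse and medians of 3266 to 3926 UMIs per cell. Cells were placed in ranges by their own Ly6c2, MHC class II and C1q UMIs, and none of the 10 genes was used for this. Levels are given as UMIs scaled to a total of 1000000 UMIs (CPM). Cells above 2295 CPM of the C1q genes were called C1q-high, which held 764 and 1852 chow cells and 460 and 655 HFD cells. Among the others, Ly6c2+ MHC II-low cells had a Ly6c2 UMI and fewer than 19010 MHC class II CPM (66 and 68 chow cells, 278 and 320 HFD cells), and Ly6c2- MHC II-high C1q-low cells had no Ly6c2 UMI and MHC class II above that limit (26 and 28 chow cells, 98 and 179 HFD cells). Ly6c2+ MHC II-high cells numbered only 3 and 18 on chow against 93 and 336 on HFD, so that range is given by values with no test. These are ranges of a level and not cell types: 201 cells lay within 1.5-fold of the C1q limit and 305 within 1.5-fold of the MHC class II limit. Of the monocyte and macrophage markers, 14 of 14 had UMIs in every mouse, while 5 T cell markers summed to 3.39 to 22.6 CPM over all cells of a mouse. Markers of other cell types were not absent, with B and plasma cell markers at 1296 to 4587 CPM, dendritic cell markers at 48.6 to 136 CPM and epithelial markers at 2.61 to 151 CPM, highest in HFD mouse 3. Barcodes found in 2 libraries numbered 23 (46 cells, 0.849%), and Scrublet called 38 cells doublets (0.701%). For each gene, UMIs were summed over the cells of a mouse and range. Fold changes and p-values come from edgeR's quasi-likelihood test on these sums with Benjamini-Hochberg adjustment over all genes tested, and a gene was called at an adjusted p under 0.01. The mice are separate animals, with 2 per diet. Scaling by library totals in place of the TMM factors used raised the median log2 fold change over all genes from -0.01 to 0.21 in all cells of a mouse and from -0.02 to 0.13 in C1q-high cells.

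In C1q-high cells, the range with the most cells, the inducible proteasome and proteasome activator genes, Tap1, Tapbp and B2m were higher on HFD. The heavy chains did not pass the test. Of the 10 genes, 8 rose and none fell, where 10.5% of 5067 tested genes were called, 5.35% as higher and 5.19% as lower. The values of both HFD mice exceeded those of both chow mice for all 10, as they did for 42% of the tested genes. The median log2 fold change of the 10 genes was 1.23, against -0.02 over all genes tested. Fold changes were largest for Tap1, Psme2 and the inducible proteasome subunits, and smallest for the heavy chains.

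Psmb8, Psmb9 and Psmb10 encode the 3 catalytic subunits of the immunoproteasome. In C1q-high cells Psmb8 stood at 68.6 and 46.8 CPM in chow mice 9 and 11 and at 186 and 176 CPM in HFD mice 1 and 3. Psmb9 gave 138 and 167 CPM in the chow mice against 376 and 459 CPM in the HFD mice, and Psmb10 gave 52.5 and 63.7 CPM under chow compared with 197 and 202 CPM under HFD. All 3 subunits were therefore low in both chow mice and high in both HFD mice. Their log2 fold changes were 1.52 ± 0.20 (SE) for Psmb8, 1.30 ± 0.15 for Psmb9 and 1.63 ± 0.15 for Psmb10 (edgeR adjusted p = 0.00176, 0.00108 and 0.000404).

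Psme1 and Psme2 encode the alpha and beta subunits of PA28, a ring that caps the proteasome and opens it. Psme2 moved from 206 and 179 CPM on chow to 760.4 and 817 CPM on HFD in C1q-high cells, with a log2 fold change of 1.89 ± 0.14 (edgeR adjusted p = 0.000137). Psme1 moved less, from 217 and 227 CPM to 510.1 and 587 CPM, a log2 fold change of 1.16 ± 0.13 (edgeR adjusted p = 0.000897). Psme2 is the less certain of the pair as a single gene, because 66.2% of the 31-base stretches of its transcript also occur in Psme2b and Gm7928, which were not analysed here. Psme1 shares 22.1% of its stretches with other gene models.

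Tap1 encodes a chain of the peptide transporter, and Tapbp encodes tapasin, which bridges the transporter and the empty heavy chain. Tap1 was scarce in C1q-high cells of chow mice, at 37.6 and 65.5 CPM, and reached 243 and 254 CPM in HFD mice. Its log2 fold change of 2.10 ± 0.23 was the highest of the 10 genes in this range and the 36th highest of the 5067 genes tested (edgeR adjusted p = 0.000886). Tapbp rose from 140.1 and 139 CPM to 277 and 298 CPM, a log2 fold change of 0.89 ± 0.13 (edgeR adjusted p = 0.00249). Tap2, the other transporter chain, gave 78.8 and 56.8 CPM in chow mice and 126 and 134 CPM in HFD mice and did not pass the threshold (log2 fold change 0.80 ± 0.19, edgeR adjusted p = 0.0178).

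B2m, the invariant light chain, stood at 1465 and 1264 CPM in C1q-high cells on chow and at 2734 and 2819 CPM on HFD, a log2 fold change of 0.88 ± 0.13 (edgeR adjusted p = 0.00269). H2-D1 gave 2495 and 2739.9 CPM in the chow mice against 3976 and 4056 CPM in the HFD mice, and H2-K1 gave 1075 and 1479 CPM under chow compared with 2245 and 2411 CPM under HFD. Neither heavy chain passed the 1% threshold, although the mice of the 2 diets did not overlap (log2 fold changes 0.47 ± 0.12 and 0.72 ± 0.16, edgeR adjusted p = 0.0262 and 0.0153). Both passed with no filter on low counts and with library totals, and H2-K1 also passed with DESeq2, with the edgeR likelihood-ratio test and without chow mouse 11. Of the 31-base stretches of H2-D1 and H2-K1, 23.02% and 23.3% also occur in other H2 genes, among them each other, and a further 4.44% of those of H2-D1 occur only in genes outside this family. Over the last 400 bases, where 3′ libraries take most reads, the shares that occur in any other gene were 28.75% for H2-D1 and 9% for H2-K1, so that reads could have been split between genes.

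**Figure D1:**
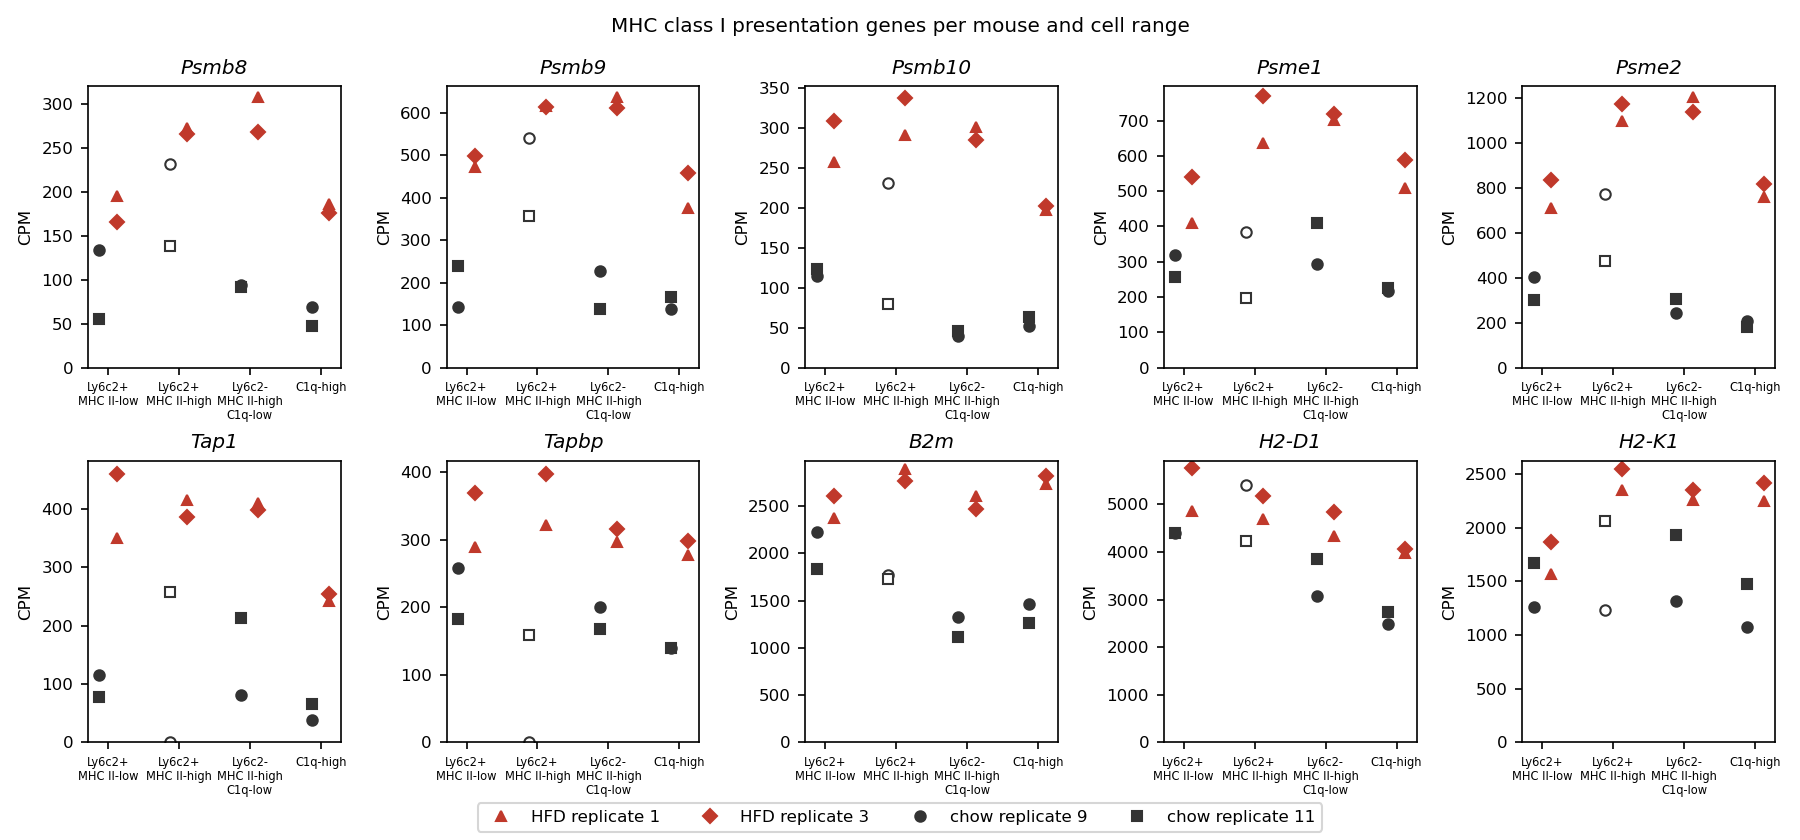
Levels of the 10 genes in CPM (linear vertical axes from 0) in the 4 cell ranges (horizontal axes), 1 point per mouse, with chow in black and HFD in red. Open symbols mark the range with 3 and 18 chow cells, and in C1q-high cells both HFD points lie above both chow points in all 10 panels.

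The C1q-high result depended on having both HFD mice. With chow mouse 9 or 11 left out, 8 and 9 of the 10 genes were called, but 1 (Psme2) was called without HFD mouse 1 and none without HFD mouse 3, when the calls over all genes also fell from 534 to 103 and 26. The log2 fold changes stayed positive, from 1.78 to 2.57 for Tap1 and from 1.78 to 2.00 for Psme2 with any 1 mouse left out. In this range HFD mice also had less C1q (14960.5 and 14030 CPM against 19168 and 20039 CPM on chow) and more Ly6c2 (123 and 277 CPM against 27.1 and 33 CPM), and 8 of the 10 genes were called as well after C1q-high cells with a Ly6c2 UMI were left out, when 400 of 4992 genes were called in all. B and plasma cell markers summed to 2637 and 3080 CPM in the chow mice and to 136 and 103 CPM in the HFD mice of this range, and 8 of the 10 genes were also called without the immunoglobulin-rich cells, when 538 of 5066 genes were called in all. Macrophage and monocyte markers summed to 43033 and 48146 CPM on chow and to 37972 and 38354 CPM on HFD, and those of stroma or vessel to 26.3 and 52.3 CPM and to 17.7 and 16.8 CPM. T cell markers summed to 3.21 and 4.38 CPM on chow and to 5.91 and 21 CPM on HFD, and epithelial markers to 2.63 and 11 CPM and to 19.3 and 12.8 CPM. NK markers summed to 6.71 and 8.89 CPM on chow and to 21.5 and 13.9 CPM on HFD, and neutrophil markers to 12 and 21.5 CPM and to 29 and 29.6 CPM. The part of these sums in the result was not tested.

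Ly6c2+ MHC II-low cells, which carry the Ly6C transcript of blood monocytes, gave 1 call among the 10 genes. Only Tap1 was called, and it rose, where 0.814% of 4548 tested genes were called and 0.594% rose. Tap1 gave 115 and 78 CPM in chow mice and 349.8 and 459 CPM in HFD mice, a log2 fold change of 1.97 ± 0.27 (edgeR adjusted p = 0.000647). Psmb9, Psme2 and Psmb10 did not pass the 1% threshold, with adjusted p under 0.05 by edgeR. Psmb9 stood at 143 and 238 CPM in the chow mice against 472 and 498 CPM in the HFD mice (log2 fold change 1.23 ± 0.24, edgeR adjusted p = 0.0105). Psme2 gave 402 and 303 CPM against 712 and 835 CPM (1.03 ± 0.21, edgeR adjusted p = 0.0139), and Psmb10 gave 115 and 124 CPM against 257 and 309 CPM (1.14 ± 0.25, edgeR adjusted p = 0.0263). In these 3 genes the diets did not overlap, with both HFD mice above both chow mice as in 28.8% of the tested genes. Psmb8 gave 134 and 55 CPM against 195 and 165 CPM (0.84 ± 0.33), Psme1 gave 320.4 and 257 CPM against 411 and 541 CPM (0.62 ± 0.22), and Tapbp gave 258 and 183 CPM against 289.7 and 369 CPM (0.47 ± 0.24). These 3 did not pass, and their diets did not overlap either. Psmb8 depended on chow mouse 9, without which its log2 fold change was 1.60 (edgeR adjusted p = 0.00812), and with 1 mouse left out it ran from 0.33 to 1.60. Tap1 was the 1 gene of the 10 called in all 4 fits that left out a mouse.

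The display end of the pathway gave small differences in the same cells. B2m stood at 2229 and 1834 CPM under chow compared with 2377 and 2611 CPM under HFD, a log2 fold change of 0.19 ± 0.18. H2-D1 gave 4390.4 and 4398 CPM against 4851 and 5753 CPM (0.17 ± 0.17), and H2-K1 gave 1263 and 1669 CPM against 1568 and 1870.0 CPM (0.12 ± 0.19). H2-K1 was the 1 gene of the 10 whose mice overlapped between the diets in this range, and its fold change turned negative without chow mouse 9 or without HFD mouse 3. The median of the 10 genes was 0.73 on the log2 scale, against -0.01 over all genes tested.

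The chow sums of this range come from few cells, and markers of other cell types differed between the mice. B and plasma cell markers summed to 40599 and 26864 CPM in chow mice and 8790 and 7039 CPM in HFD mice, and 2, 1, 1 and 1 cells of chow mice 9 and 11 and HFD mice 1 and 3 had over 1% immunoglobulin UMIs. With all such cells left out, Tap1 and Psme2 were called, among 43 of 4511 genes in all. HFD mouse 3 stood apart in epithelial markers, at 576 CPM against 4.56 to 4.78 CPM in the other 3 mice, and Tap1 was called without it. Neutrophil markers summed to 57.4 and 64.2 CPM on chow and to 152 and 71.7 CPM on HFD, dendritic cell markers to 124 and 105 CPM and to 58.3 and 68.6 CPM, and NK markers to 0 and 4.59 CPM and to 12.8 and 18.7 CPM. Their part in the result was not tested. The count was 4 of 10 (Tap1, Psmb9, Psmb10 and Psme2) with library totals in place of TMM scaling, when 57 of 4548 genes were called in place of 37.

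In Ly6c2- MHC II-high C1q-low cells, 6 of the 10 genes rose (Psmb8, Psmb9, Psmb10, Psme2, Tap1 and B2m), where 2.34% of 4480 tested genes were called and 1.18% rose, and both HFD mice lay higher than the chow mice for all 10, as for 30.8% of the tested genes. The edgeR fit of this range leaned on the spread shared over genes, with 118 prior degrees of freedom against 4.54 to 28.8 in the others. The count of 6 was 1 with DESeq2, 1 with 2 or more Ly6c2 UMIs required and 2 with a halved MHC class II limit. Psme2 gave 241 and 304 CPM in the chow mice against 1202 and 1136 CPM in the HFD mice (log2 fold change 2.06 ± 0.29, edgeR adjusted p = 1.82e-08). Psmb9 gave 228 and 137 CPM against 638 and 611 CPM (1.71 ± 0.33, edgeR adjusted p = 7e-05), and Psmb8 gave 93.7 and 91.3 CPM against 307 and 268 CPM (1.59 ± 0.41, edgeR adjusted p = 0.0088). The chow values come from 7 and 6 UMIs of Psmb8 and on 17 and 9 UMIs of Psmb9.

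Psmb10 gave 40.2 and 45.6 CPM against 302 and 285 CPM (2.72 ± 0.50, edgeR adjusted p = 3.01e-05). It rested on 6 UMIs in the chow mice of this range, 3 in each, against 256 in the HFD mice, a ratio of CPM of 6.83 with an exact 95% interval of 3.10 to 18.8 that covers counting error only. Tap1 gave 80.3 and 213 CPM under chow compared with 409 and 398 CPM under HFD (log2 fold change 1.45 ± 0.36, edgeR adjusted p = 0.00608), and the chow mice differed from each other by more than the HFD mice did. Without chow mouse 9 the log2 fold change of Tap1 was 0.87 and without chow mouse 11 it was 2.28, and it was not called with any 1 mouse left out (edgeR adjusted p from 0.0104 to 0.259). Psmb8 and B2m were not called with any 1 mouse left out either (edgeR adjusted p from 0.106 to 0.335 and from 0.0128 to 0.135). B2m gave 1325 and 1111 CPM against 2606 and 2465 CPM (1.01 ± 0.22, edgeR adjusted p = 0.000821). H2-D1, H2-K1, Tapbp and Psme1 did not pass, with log2 fold changes of 0.36 ± 0.20, 0.47 ± 0.22, 0.69 ± 0.35 and 0.98 ± 0.29. This range held 26 and 28 chow cells, and 1 or 2 of the 10 genes were called with any 1 mouse left out, Psme2 each time, and no gene of the whole table was called when all sums were thinned to the same depth. Dendritic cell markers summed to 669 and 198 CPM in chow mice and 697 and 672 CPM in HFD mice in this range, and NK markers to 66.9 and 60.9 CPM against 347 and 172 CPM. Macrophage and monocyte markers summed to 33819 and 43957 CPM on chow and to 18079 and 26946 CPM on HFD, and mitochondrially encoded genes to 11902 and 13252 CPM and to 10762 and 7871 CPM, so that both sums were lower in the HFD mice. B and plasma cell markers were at 321 and 396 CPM in the chow mice against 147 and 88.1 CPM in the HFD mice, and stroma or vessel markers at 0 and 0 CPM and at 16.9 and 23 CPM. In the HFD mice, macrophage and monocyte markers were lower and dendritic cell markers higher here than in Ly6c2+ MHC II-low cells (78722 and 85251 CPM, 58.3 and 68.6 CPM) and in C1q-high cells (37972 and 38354 CPM, 34.9 and 46.3 CPM). The part of these differences in the result was not tested.

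**Figure D2:**
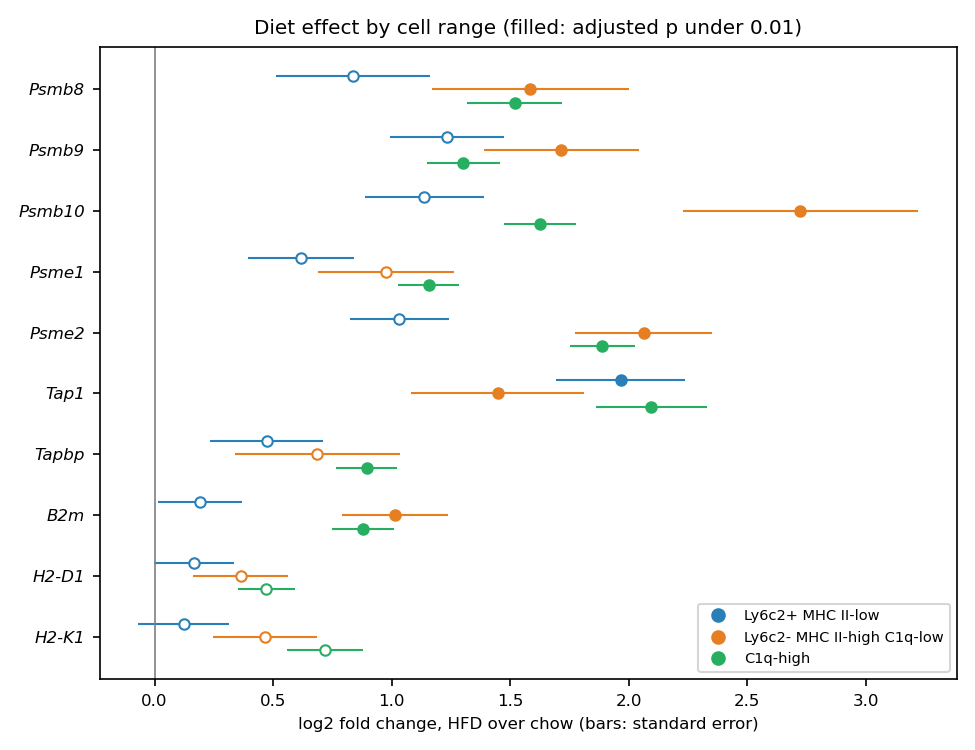
Log2 fold change of HFD over chow (horizontal axis) for each of the 10 genes in 3 cell ranges, with bars of 1 standard error and filled points at an adjusted p under 0.01. Tap1 is filled in all 3 ranges, and the heavy chains H2-D1 and H2-K1 lie nearest to 0 and are open in all 3.

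Over all cells of a mouse, 8 of the 10 genes rose and none fell, where 16.2% of 4955 tested genes were called, 7.67% as higher and 8.58% as lower. Their log2 fold changes ran from 0.72 ± 0.12 for B2m to 2.30 ± 0.22 for Tap1. H2-D1 and H2-K1 gave 0.50 ± 0.11 and 0.54 ± 0.17 (edgeR adjusted p = 0.015 and 0.0511). These sums mix the diet effect with a changed make-up of the sample, since 84.5% and 92.5% of the cells of chow mice 9 and 11 but 47.6% and 42.3% of those of HFD mice 1 and 3 were C1q-high. The median UMIs per C1q-high cell overlapped between the diets, at 4215 and 3869.5 on chow and 3763 and 4116 on HFD. Over all cells, B and plasma cell markers summed to 4587 and 3729 CPM on chow and to 2626 and 1296 CPM on HFD, and mitochondrially encoded genes to 12105 and 11039 CPM and to 10687 and 8211 CPM. Dendritic cell markers went the other way, from 55.8 and 48.6 CPM on chow to 129.7 and 136 CPM on HFD, as did NK markers, from 7.31 and 9.18 CPM to 56.7 and 37.4 CPM, and neutrophil markers, from 15.7 and 23.5 CPM to 67.7 and 44.1 CPM. T cell markers were at 3.39 and 4.66 CPM in the chow mice against 6.01 and 22.6 CPM in the HFD mice, epithelial markers at 2.61 and 15.5 CPM and at 21.2 and 151 CPM, and stroma or vessel markers at 23.7 and 49.8 CPM and at 13.6 and 18.1 CPM. The part of these differences in the result was not tested. With HFD mouse 1 or HFD mouse 3 left out, 5 and 3 of the 10 genes were called over all cells, and the calls over all genes went from 805 to 268 and 155.

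The Ly6c2+ MHC II-high cells of HFD mice were read by their values only. Psme2 reached 1097 and 1171 CPM there in HFD mice 1 and 3, and Psme1 reached 636 and 769 CPM. The 3 cells of chow mouse 9 held no Tap1 or Tapbp UMI, which allows up to 231 CPM of each, so the chow values of this range carry little information.

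Within chow mice, none of the 10 genes passed the test as higher in C1q-high than in Ly6c2+ MHC II-low cells. All 10 genes had a lower CPM in C1q-high than in Ly6c2+ MHC II-low cells in both chow mice, as did 42.1% of the tested genes. In a fit with a term for each mouse, 2 of them passed the test as lower, where 17.3% of 5500 tested genes were called, 9.04% as lower and 8.24% as higher: Psme2, with a log2 difference of -0.65 ± 0.17 (edgeR adjusted p = 0.00539), and H2-D1, with -0.53 ± 0.14 (edgeR adjusted p = 0.00438). Without chow mouse 9 or chow mouse 11 neither passed, and H2-D1 did not pass without HFD mouse 3 either. The count of 2 was 1 with DESeq2 and with no filter on low counts, 0 with a halved C1q limit and 4 with library totals. In this fit H2-K1 stood at 0.02 ± 0.14, against the direction of its CPM, and the median of all genes was 0.05 with TMM scaling and -0.16 with library totals. Between Ly6c2- MHC II-high C1q-low and Ly6c2+ MHC II-low cells of chow mice, B2m alone passed, as lower (-0.86 ± 0.17, edgeR adjusted p = 0.00091), where 2.2% of tested genes were called, 1.18% as lower and 1.02% as higher. It did not pass with the immunoglobulin-rich cells left out (-0.64, edgeR adjusted p = 0.0201) or without either chow mouse.

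In the HFD mice the order of the ranges was read from the values alone. In both HFD mice, 5 of the 10 genes (Psmb8, Psmb9, Psme1, Psme2 and H2-K1) were higher in Ly6c2- MHC II-high C1q-low than in Ly6c2+ MHC II-low cells and 1 (H2-D1) was lower, where 34% of 5500 tested genes were higher and 32.5% lower. Between C1q-high and Ly6c2+ MHC II-low cells, 3 of the 10 (B2m, H2-K1 and Psme1) were higher in the C1q-high range in both HFD mice and 5 (H2-D1, Psmb9, Psmb10, Tap1 and Tapbp) were lower, where 31.1% of the tested genes were higher and 43.3% lower. B2m stood at 2734 and 2819 CPM in HFD C1q-high cells, above its 2377 and 2611 CPM in HFD Ly6c2+ MHC II-low cells, whereas on chow it was lower in the C1q-high range in both mice. H2-D1 was lower in C1q-high than in Ly6c2+ MHC II-low cells in the HFD mice as well, at 3976 and 4056 CPM against 4851 and 5753 CPM.

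Whether the diet effect itself differed between C1q-high and Ly6c2+ MHC II-low cells was tested as an interaction. None of the 10 genes passed at 1%, where 1.51% of 5500 genes did, 1.04% as higher and 0.473% as lower, and DESeq2 and the edgeR likelihood-ratio test also called none of the 10. At an unadjusted p under 0.05 there were 3 of the 10, where 13.6% of all genes were, each with the larger diet effect in C1q-high cells: Psme2 (difference of 0.77 ± 0.22 on the log2 scale, edgeR adjusted p = 0.0466), B2m (0.60 ± 0.19, edgeR adjusted p = 0.0848) and H2-K1 (0.51 ± 0.19, edgeR adjusted p = 0.164). For Tap1 and Psmb9 the differences were 0.09 ± 0.33 and -0.02 ± 0.26. The fit had 2 mice per diet, and the standard errors allow differences in either direction for these genes.

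Inside the C1q-high range, cells were also split into 3 bins by their C1q level (limits at 12909 and 20387 CPM). In all 30 combinations of gene and bin, both HFD values exceeded both chow values, against 31.9% of all combinations for the tested genes, and 13.9% of the tested genes did so in all 3 bins. All 10 genes were higher in the lowest than in the highest C1q bin in both HFD mice, as were 46.3% of the tested genes. The ratio of the lowest to the highest bin was close to 1 for some, at 1.01 for H2-D1 and 1.02 for H2-K1 in HFD mouse 3 and 1.02 for Psmb9 in HFD mouse 1. In chow mouse 9 the count was 3 of 10, where 57.1% of the tested genes were higher, and in chow mouse 11 it was 5 of 10, where 59.2% were. Psme2 is an example, with 990.2 and 1012 CPM in the lowest bin of HFD mice 1 and 3 and 472 and 574 CPM in their highest bin. The same gene gave 191 and 183 CPM in the lowest and 221 and 187 CPM in the highest bin of chow mice 9 and 11. Psmb10 went from 229.7 and 250.3 CPM in the lowest to 157 and 143 CPM in the highest bin of the HFD mice, and H2-D1 from 4260.5 and 4137 CPM to 3774 and 4101 CPM. The lowest bin held 224 and 362 HFD cells but 122 and 248 chow cells. These gradients were described and not tested.

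**Figure D3:**
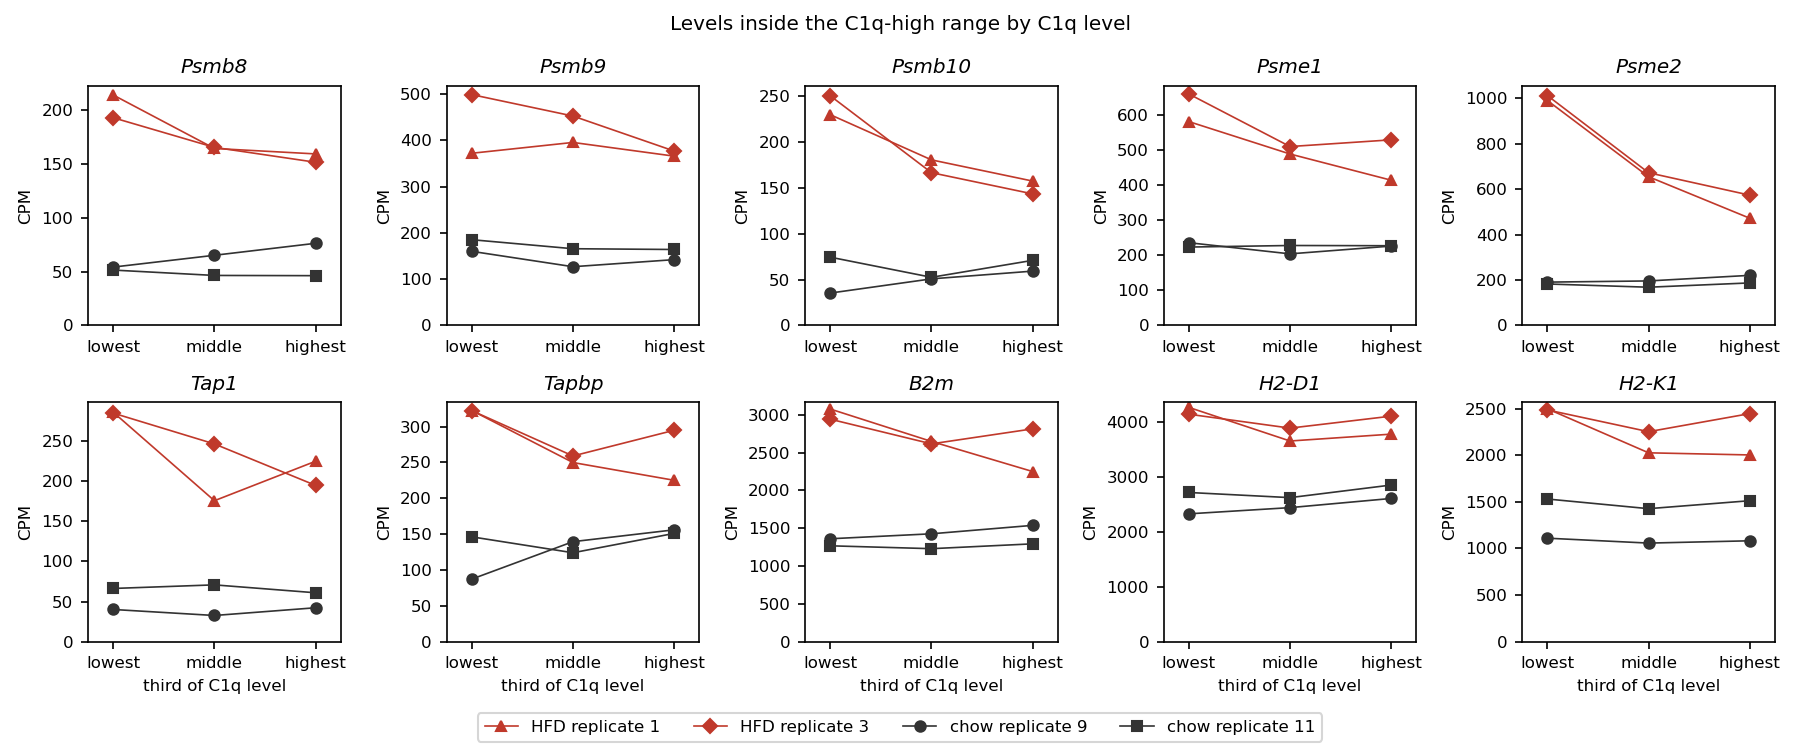
Levels of the 10 genes in CPM (linear vertical axes from 0) in the lowest, middle and highest bin of C1q level inside the C1q-high range, with a line per mouse, chow in black and HFD in red. The red lines lie above the black lines throughout, and Psme2 goes from 990.2 and 1012 CPM to 472 and 574 CPM in HFD mice.

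The inducible catalytic subunits can be set against the constitutive subunits they replace, Psmb5 for Psmb8, Psmb6 for Psmb9 and Psmb7 for Psmb10. UMIs are not corrected for transcript length or capture here, so the ratio is read only between mice. In C1q-high cells the log2 ratio of the 3 inducible to the 3 constitutive subunits was -0.70 and -0.53 in chow mice 9 and 11 and 0.06 and 0.00 in HFD mice 1 and 3, a mean of -0.61 ± 0.12 (SD, n = 2) against 0.03 ± 0.04 (SD, n = 2). The difference of 0.64 had an exact permutation p of 0.333, two-sided, the smallest that 2 against 2 mice can give. It was 0.89 in Ly6c2+ MHC II-low cells and 0.99 in Ly6c2- MHC II-high C1q-low cells, again with no overlap between the diets. Of the 3 constitutive subunits, Psmb5 and Psmb6 rose in C1q-high cells, with log2 fold changes of 0.96 ± 0.15 and 0.74 ± 0.13 (edgeR adjusted p = 0.00358 and 0.00578), and Psmb7 did not pass (0.73 ± 0.27, edgeR adjusted p = 0.0911). Psmb7 gave 80.2 and 43.1 CPM on chow against 107 and 115 CPM on HFD. Psmb6 was not called with any 1 mouse left out, and Psmb5 was not called without HFD mouse 1 or without HFD mouse 3. Taken singly, the ratios overlapped between diets in some ranges. Psmb8 over Psmb5 overlapped in Ly6c2+ MHC II-low cells (0.35 and -1.37 on chow, -0.05 and -0.14 on HFD). It also overlapped in Ly6c2- MHC II-high C1q-low cells (-0.51 and 0.58 on chow, 0.33 and 0.42 on HFD). Psmb10 over Psmb7 overlapped in Ly6c2+ MHC II-low cells (0.06 and 1.05 on chow, 0.95 and 1.77 on HFD).

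**Figure D4:**
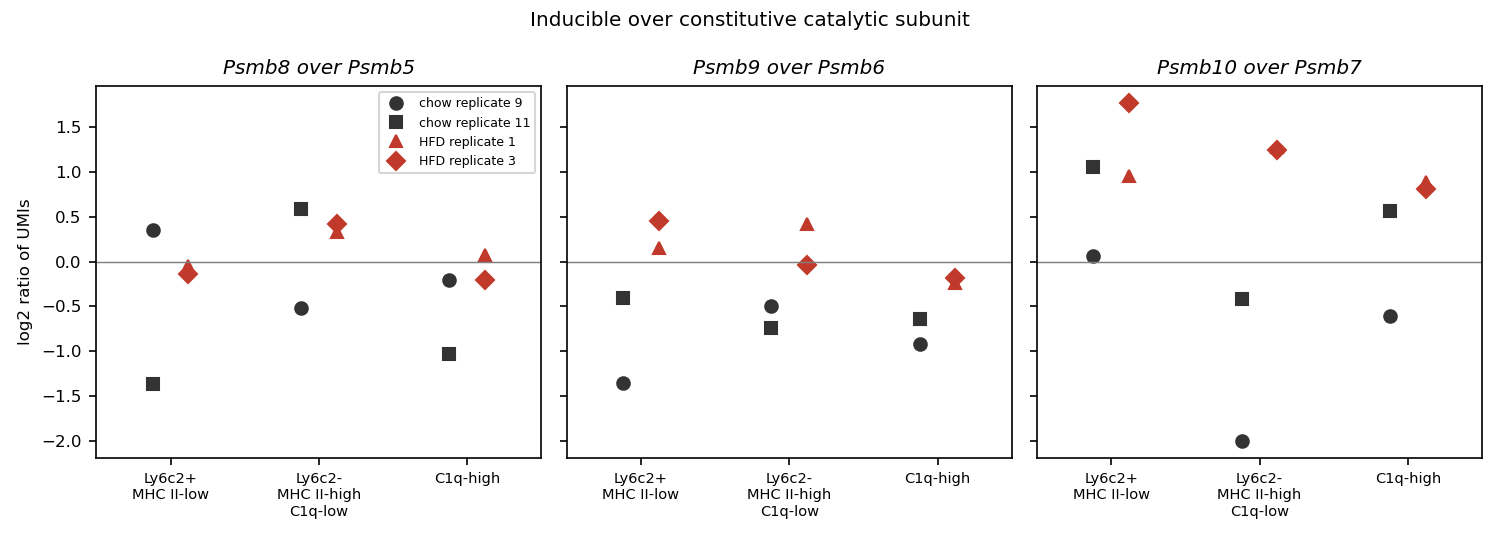
Log2 ratio of UMIs of each inducible catalytic subunit over the constitutive subunit it replaces (vertical axis) in 3 cell ranges, 1 point per mouse, with chow in black and HFD in red. Psmb9 over Psmb6 separates the diets in all 3 ranges. Psmb8 over Psmb5 overlaps in Ly6c2+ MHC II-low and in Ly6c2- MHC II-high C1q-low cells, and Psmb10 over Psmb7 overlaps in Ly6c2+ MHC II-low cells.

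The transporter can be set against the heavy chains in the same way, and the ratio was higher in both HFD mice in the 3 ranges compared. The log2 ratio of Tap1 to the summed heavy chains H2-D1 and H2-K1 in C1q-high cells was -6.57 and -6.01 on chow and -4.68 and -4.67 on HFD, a difference of 1.61. The corresponding difference was 1.83 in Ly6c2+ MHC II-low and 1.17 in Ly6c2- MHC II-high C1q-low cells. B2m over the heavy chains differed by 0.32 in C1q-high cells, 0.04 in Ly6c2+ MHC II-low cells and 0.61 in Ly6c2- MHC II-high C1q-low cells. The exact permutation p was 0.333 or above for each of these ratios, so they stand as descriptions.

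Coordination was also read from cell to cell. Each cell was thinned to 1500 UMIs, which left out the shallower cells and kept 722 and 1680 chow and 401 and 591 HFD cells in the C1q-high range. After thinning, the median C1q-high cell held 1 UMI of the immunoproteasome and PA28 genes together in both chow mice and 3 in both HFD mice, and the median for the heavy chains was 5 and 6 on chow and 8 and 10 on HFD. The Pearson correlation across cells between the transporter pair (Tap1 and Tapbp) and the immunoproteasome and PA28 genes was 0.06 and 0.00 in chow mice 9 and 11 and 0.11 and 0.18 in HFD mice 1 and 3. With no thinning it was 0.15 and 0.16 in the chow mice and 0.26 and 0.16 in the HFD mice, so that HFD mouse 3 then lay close to the chow mice. The constitutive catalytic subunits were also set against the immunoproteasome and PA28 genes. After thinning this correlation was 0.05 and 0.06 in the chow mice and 0.21 and 0.09 in the HFD mice. It was 1 of 6 pairs of gene groups. Over these 6 pairs the correlations ran from -0.05 to 0.07 on chow and from 0.05 to 0.23 on HFD in this range. They ran from -0.01 to 0.09 and from 0.03 to 0.20 after thinning to 1000 UMIs. With no thinning they ran from 0.02 to 0.21 and from 0.06 to 0.29. Pooled over the pairs, the correlations overlapped between the diets in all 3 settings. In Ly6c2- MHC II-high C1q-low cells of HFD mice they ran from -0.06 to 0.37, with a median of 0.19, and that of the transporter pair with the immunoproteasome and PA28 genes was 0.00 over 77 cells of HFD mouse 1 and 0.30 over 132 cells of HFD mouse 3. In Ly6c2+ MHC II-low cells they ran from -0.10 to 0.25 on chow and from 0.04 to 0.22 on HFD. In Ly6c2+ MHC II-high cells of HFD mice they ran from -0.08 to 0.21, with a median of 0.06, close to the median of 0.05 in C1q-high cells of chow mice. Counts of 0 to a few UMIs limit what such a correlation can show, and cells of a mouse share a library, so no p is given. Across the 12 sums of mouse and range, by contrast, the 45 pairs of the 10 genes had correlations of log2 level from 0.57 (H2-D1 with H2-K1) to 0.95 (Psme1 with Psme2), with a median of 0.82. These 12 points share 4 mice and 2 diets, and the correlations describe them only.

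The genes outside the pathway lists whose level over the 12 sums was most like the mean of the 10 were Ndufs4 (Pearson r = 0.97), Psmb2 (0.96), Uqcrq (0.96), Cox7b (0.96), Ndufb6 (0.96), Ndufs6 (0.95), Gbp2 (0.95), Cnn3 (0.95), Cox7a2 (0.95) and Cox8a (0.95). The interferon-response markers Gbp2, Cxcl9, Isg15 and Irf7 together stood at 98 and 141 CPM in chow C1q-high cells and at 1780.1 and 2067 CPM in HFD C1q-high cells. In Ly6c2+ MHC II-low cells they stood at 928 and 738 CPM in the chow mice against 2947 and 4073 CPM in the HFD mice.

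A wider list of 32 class I pathway genes and regulators was read in the same fits, of which 29 were in the table and 22 or 23 were tested in each comparison. In C1q-high cells 7 of 22 rose and none fell, where 5.35% of 5067 tested genes rose, and the median log2 fold change was 0.61 against -0.02 over all genes tested. Among the 7 were Sec61b, Pomp, Psmb5, Psmb6, H2-T22 and H2-Q7. Sec61b, a subunit of the channel through which proteins enter the endoplasmic reticulum, gave 347 and 411 CPM in chow mice against 906 and 1131 CPM in HFD mice (1.28 ± 0.15, edgeR adjusted p = 0.00104). Pomp, the assembly chaperone of the proteasome, gave 423 and 406 CPM against 753 and 903 CPM (0.85 ± 0.13, edgeR adjusted p = 0.00327). Among non-classical class I genes, H2-T22 gave 35.9 and 42.2 CPM against 87 and 105 CPM (1.14 ± 0.17, edgeR adjusted p = 0.00269), and H2-Q7, which shares sequence with H2-D1, gave 56 and 108 CPM against 238 and 307 CPM (1.56 ± 0.28, edgeR adjusted p = 0.00548). The loading chaperones Pdia3, Calr and Canx did not pass, with log2 fold changes of 0.21 ± 0.13, -0.02 ± 0.20 and -0.16 ± 0.15. Nlrc5, the class I transactivator, was too low to be tested in C1q-high cells, at 7 and 8.49 CPM in chow mice and 24.7 and 18.9 CPM in HFD mice. In Ly6c2- MHC II-high C1q-low cells 2 of 23 rose, Pomp among them, where 1.18% of 4480 tested genes rose, and over all cells 7 of 22 rose, where 7.67% of 4955 did.

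In Ly6c2+ MHC II-low cells 1 of 22 rose, where 0.594% of 4548 tested genes did. It was Irf1, a transcription factor that acts on class I and immunoproteasome genes. Irf1 gave 90.9 and 101 CPM in the chow mice against 530.2 and 577 CPM in the HFD mice in these cells (log2 fold change 2.42 ± 0.24, edgeR adjusted p = 1.59e-05). In C1q-high cells it gave 86.7 and 133 CPM against 164 and 148 CPM and did not pass (0.35 ± 0.21, edgeR adjusted p = 0.267). The interactions between diet and range for Psme2 and B2m were positive and did not pass at 1%. That of Irf1 was negative and passed, with a difference of -2.15 ± 0.28 (edgeR adjusted p = 3.13e-06). It was -1.94 and did not pass without chow mouse 11 (edgeR adjusted p = 0.0106).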

How the data were processed

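The deposited table holds raw UMI counts per gene and cell. The authors made it from 10x Genomics 3′ libraries with kallisto 0.46.0 and bustools 0.39.2 on the mouse transcriptome (mm10, per the labels' processing notes), then removed low-quality cells, low-abundance genes and cells not annotated as monocytes or macrophages. How reads that fit several genes were counted is not given in the sources used here. Ensembl IDs were matched to symbols for 11819 of 11820 genes. UMI counts were summed per mouse and cell range. C1q and MHC class II limits were set by Otsu's method on log10(CPM + 100) with mice weighted equally, and a range was tested only with at least 20 cells in every mouse. Tested genes exceeded a CPM of 1 in 2 or more sums and were detected in 5% or more of the cells. They were tested with edgeR 4.0.16 (R 4.3.3; TMM scaling, quasi-likelihood test, Benjamini-Hochberg adjustment, 1% threshold). The study's methods name edgeR, TMM and the threshold but not the quasi-likelihood test. The fits were also run on simulated counts with the same fixed spread for all genes. This does not show how they behave with the spread between these mice. Fits per range held diet only, and comparisons of ranges used 1 fit of 12 sums with a term for each mouse, range and diet by range. Standard errors are the absolute log2 fold change over the root of the F statistic. Alternatives were DESeq2 1.42.0, a likelihood-ratio test, no filter, other limits, doublets left out, and each mouse left out. Library totals, equal depth, and leaving out immunoglobulin-rich or Ly6c2-positive C1q-high cells were added after seeing the data. The named genes are the 10 in every comparison, the members of the wider list that were called (except 1 that is not reported here), Tap2, Nlrc5, Psmb5, Psmb6 and Psmb7 whether called or not, and the 10 genes with the highest correlation to their mean. Canx was added after its values were seen. The members and lists were chosen with earlier results of these data known. Total UMIs per mouse (3824228 to 7947893) and 65724 to 7536501 per tested sum set the counting error, and intervals cover counting error only. The precision of the fold changes also depends on the spread between mice, with 2 mice per diet.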

Additional observations from a re-analysis of the deposited data

Results flagged for a closer look

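Irf1 was singled out because its diet effect differed between cell ranges by the test of the difference itself: the log2 effect of HFD in C1q-high cells minus that in Ly6c2+ MHC II-low cells was -2.15 ± 0.28 (edgeR adjusted p = 3.13e-06) in the fit of all 12 sums. The difference was -1.94 and no longer passed without chow mouse 11 (edgeR adjusted p = 0.0106), and it passed with any other mouse left out, with a range of -2.35 to -1.94 over the 4 fits. With 2 mice per diet, no single mouse could be tested as far from its group.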

How the results depend on the processing

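Of 650 log2 fold changes of the 10 genes for diet under the alternatives tried, 648 stayed positive. The 2 exceptions were H2-K1 in Ly6c2+ MHC II-low cells, at -0.0708 without chow mouse 9 and -0.02 without HFD mouse 3 (range -0.0708 to 0.348 with 1 mouse left out). In C1q-high cells 8 to 10 of the 10 genes were called under every alternative that kept all 4 mice, while the calls over all genes ran from 400 to 924 (534 as reported). In Ly6c2+ MHC II-low cells the count was 4 with a likelihood-ratio test, with no filter, with a doubled MHC II limit and with library totals, and 2 with a halved or doubled C1q limit, with sums of equal depth and without immunoglobulin-rich cells. Over all genes, 57 to 125 were called in the former settings and 30 to 47 in the latter, against 37. In Ly6c2- MHC II-high C1q-low cells it was 1 with DESeq2 and with 2 or more Ly6c2 UMIs, 2 with a halved MHC II limit and 0 with sums of equal depth, where 0 genes of the whole table were called. DESeq2 called 41 genes of that table, 2 or more Ly6c2 UMIs 28 and the halved MHC II limit 20, against 105. Between C1q-high and Ly6c2+ MHC II-low cells on chow it was 1 with DESeq2 and with no filter, 0 with a halved C1q limit and 4 with library totals, beside 757, 950, 699 and 1072 genes called in all. Between Ly6c2- MHC II-high C1q-low and Ly6c2+ MHC II-low cells on chow it was 2 with no filter, and 0 with a halved MHC II limit and without immunoglobulin-rich cells, beside 184, 114 and 125 genes in all. The cell-to-cell correlation of transporter and immunoproteasome genes went from a mean of 0.0868 over the 4 mice to 0.184 with no thinning. The cause of these changes was not tested. With 1 mouse left out, 3 to 8 of the 10 genes were called over all cells, 1 to 3 in Ly6c2+ MHC II-low, 1 to 2 in Ly6c2- MHC II-high C1q-low and 0 to 9 in C1q-high cells, beside 155 to 920, 45 to 119, 27 to 44 and 26 to 527 genes called in all. The comparisons of ranges on chow then gave 0 to 2 and 0 to 1, and the interaction 0 in each, beside 423 to 846, 32 to 145 and 29 to 69 genes in all. A lone mouse of a diet is assumed there to vary like the other group. The comparisons of Ly6c2- MHC II-high C1q-low cells with a halved C1q or doubled MHC II limit were not run, because a mouse then held under 20 cells. No paired analysis was possible because the chow and HFD mice share no replicate number.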

Other observations

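Within chow mice, 5 of 23 tested genes of the wider class I list were called between C1q-high and Ly6c2+ MHC II-low cells, close to the share of all genes (17.3% of 5500). Of the loading chaperones, Pdia3 and Calr passed as higher in C1q-high cells, and Canx did not pass (0.42 ± 0.19, edgeR adjusted p = 0.101). Pdia3 gave 462 and 533 CPM there and 325 and 261 CPM in Ly6c2+ MHC II-low cells of chow mice 9 and 11, a log2 difference of 0.98 (edgeR adjusted p = 3.88e-05), and Calr gave 626 and 975 CPM against 574 and 592 CPM (0.65, edgeR adjusted p = 0.00199). Chow mouse 11 carried most of the difference in Calr: without it the log2 difference was 0.39 (edgeR adjusted p = 0.192), without chow mouse 9 it was 0.93 (edgeR adjusted p = 0.00291), and with library totals it was 0.44 and did not pass (edgeR adjusted p = 0.04). Pdia3 did not pass without chow mouse 11 (0.77, edgeR adjusted p = 0.0249). Sec61b, Irf2 and Pomp were lower in C1q-high cells, by log2 differences of -0.83, -0.78 and -0.54 (edgeR adjusted p = 9.01e-05, 0.00786 and 0.00642). Sec61b did not pass without chow mouse 9 (edgeR adjusted p = 0.0222), Irf2 did not pass with any 1 mouse left out (edgeR adjusted p from 0.0114 to 0.0823), and Pomp passed only without HFD mouse 1 (edgeR adjusted p from 0.0077 to 0.104). Irf2 and Pomp also did not pass with DESeq2, with no filter and with a halved C1q limit, nor did Irf2 with 2 or more Ly6c2 UMIs or with sums of equal depth.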
